A study of Mus musculus with 3 samples.

Results

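The genes described here are the Wnt ligands, their receptors and the regulators of the pathway in SB28, a transplantable mouse glioblastoma cell line. Members were taken by gene symbol alone. They comprise all numbered Wnt, Fzd, Sfrp, Dkk and Rspo genes and 19 further genes for co-receptors, receptor turnover, the beta-catenin destruction complex, TCF/LEF factors, ROR and RYK receptors and the inhibitor Wif1. The rule found 60 of the 24421 gene lines, each listed for all 3 libraries. Of the 60, 52 had at least 1 count over the 3 libraries. The series holds 1 group of 3 RNA-seq libraries of SB28 on the C57BL/6 background, with brain as the labelled source and 1 µg of total RNA per library. No treatment, time point, passage or control line is named, so genes were compared with each other and libraries with each other. Nothing states that the replicates came from separate cultures, and each SD or p-value may therefore reflect technical spread alone.

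Wnt proteins are secreted lipid-modified ligands that bind Frizzled receptors. Together with the co-receptors LRP5 and LRP6 they stop a complex of Axin, APC and kinases from marking beta-catenin for destruction, and beta-catenin then acts with TCF/LEF factors on target genes, several of which encode feedback inhibitors. Other Wnt signals run through ROR and RYK receptors without beta-catenin. In the brain the pathway is known for patterning, for progenitor growth and for the formation of the blood-brain barrier, which WNT7A and WNT7B drive in endothelium.

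Counts assigned to genes numbered 36019009 in replicate 1, 28990128 in replicate 2 and 32632858 in replicate 3. Replicates 1 and 2 lay close together and replicate 3 stood apart. In a chi-square test against counting noise (Benjamini-Hochberg adjusted p under 0.05), 256 of 12746 genes (2.01%) differed between replicates 1 and 2, against 8191 of 12802 (64%) between 1 and 3 and 7979 of 12685 (62.9%) between 2 and 3. A mean ± SD over the 3 libraries (n = 3 throughout) is therefore close to a comparison of 2 samples. The label was checked against markers. The glial, neuronal, microglial and endothelial genes Gfap, Aqp4, Olig1, Olig2, Rbfox3, Aif1 and Cldn5 had 0 counts in all libraries. Other markers of the same lists were detected, at 3 of 7 for astrocytes (Gja1 at 479 counts per 1000000 assigned counts, CPM), 2 of 7 for the oligodendrocyte lineage (Pdgfra at 52.4 CPM), 2 of 5 for neurons (Tubb3 at 19.7 CPM), 1 of 7 for microglia (Tmem119 at 62.2 CPM) and 2 of 6 for endothelium (Cdh5 at 351 CPM). Of 6 mesenchymal glioma markers 5 were detected, from Vim at 5404 ± 100 CPM to Cd44 at 870.1 ± 75 CPM, and Chi3l1 had 1 count in all. Of 8 pericyte and fibroblast markers 6 were detected too, led by Col1a1 at 1717 CPM and Col1a2 at 1232 CPM. Pooled RNA does not separate fewer cells of a kind from less RNA per cell.

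Receptors and intracellular components of the pathway were mostly detected, while most ligands, inhibitors and R-spondins were not. Of the 60 members, 31 (51.7%) were detected, meaning at least 1 CPM in all 3 libraries, against 46.6% of all gene lines and 54.1% of protein-coding ones. A further 2 members were split between libraries, 27 lay below 1 CPM in all, and 8 of these had 0 counts. Over all gene lines, 51.3% lay below 1 CPM in all and 31.9% had 0 counts. All 60 members are protein-coding, and of 20482 protein-coding lines 8961 lay below 1 CPM in all and 5295 had 0 counts. All members of the destruction complex group (4 of 4), the LRP co-receptors (2 of 2) and the ROR and RYK receptors (3 of 3) were detected, and so were 8 of 10 Frizzled receptors. By contrast, 5 of 19 ligands, 3 of 9 secreted inhibitors and 0 of 4 R-spondins passed. The median member stood at 2.73 CPM, the median gene line at 0.541 CPM and the median protein-coding line at 3.84 CPM. For a gene with 0 counts, the limit given is 3 counts, which is 0.0833, 0.103 and 0.0919 CPM in replicates 1, 2 and 3 and covers counting error only.

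**Figure D1:**
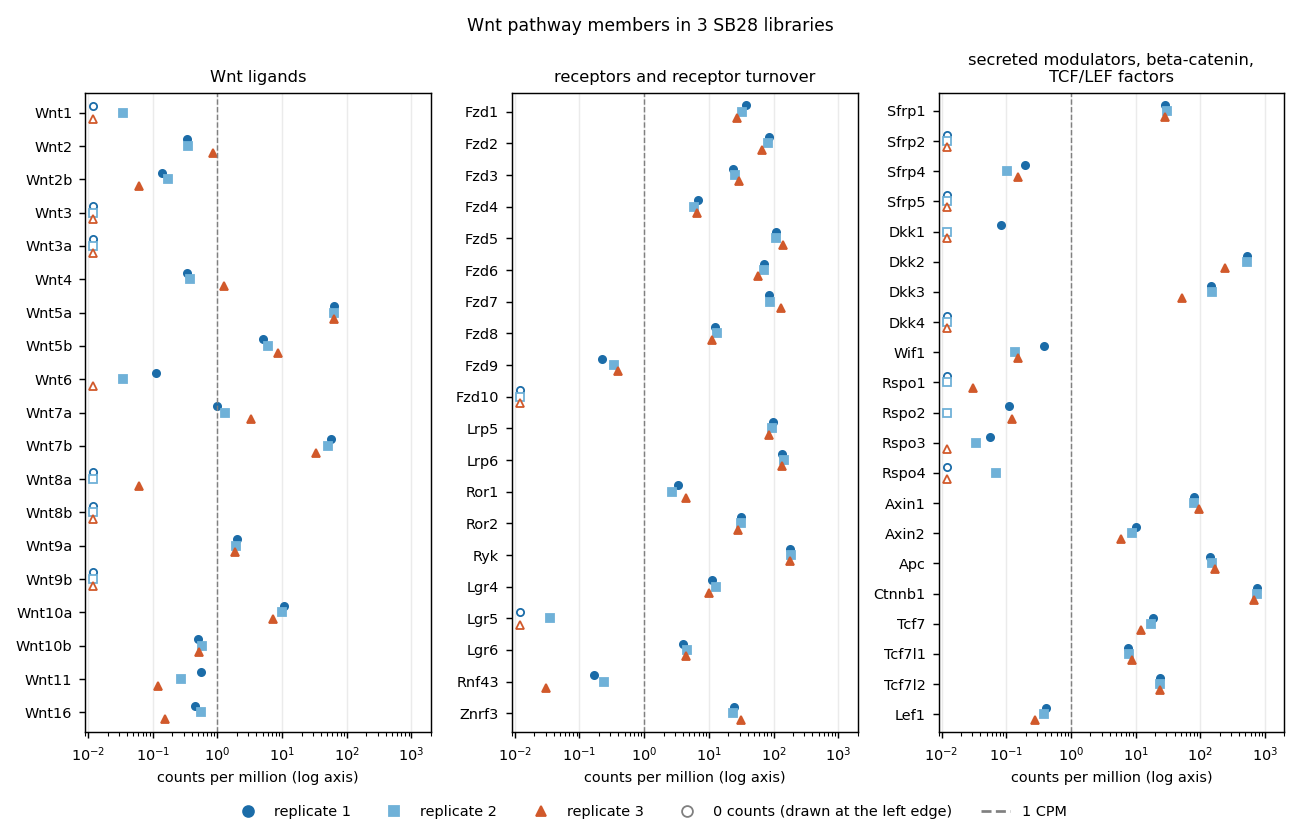
CPM of all 60 members in each of the 3 SB28 libraries, on a log axis, with 1 point per library; open points at the left edge mark 0 counts and the dashed line marks 1 CPM. Most receptors lie right of the line, most ligands left of it, and Dkk2 and Ctnnb1 lie farthest right.

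Promoter sequence is shown for 3 of the members that varied between libraries beyond counting noise, Dkk2, Axin2 and Wnt5b. Dkk2 was the most abundant inhibitor among the members and lowest in replicate 3. Axin2, the classical beta-catenin feedback gene, was also lowest in replicate 3. Wnt5b, a ligand, was highest in replicate 3. Each sequence is the 250 bases before a RefSeq transcription start in GRCm38.p6, the assembly that mm10 names. Capitals mark the TCF/LEF core motif CTTTGAT, searched on both strands.
Dkk2, chr3:132085042-132085291, plus strand: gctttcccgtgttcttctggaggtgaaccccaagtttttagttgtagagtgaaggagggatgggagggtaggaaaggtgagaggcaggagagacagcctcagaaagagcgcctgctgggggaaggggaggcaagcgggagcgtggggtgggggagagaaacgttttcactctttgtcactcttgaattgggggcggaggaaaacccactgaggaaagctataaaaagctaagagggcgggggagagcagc
Axin2, chr11:108920099-108920348, plus strand: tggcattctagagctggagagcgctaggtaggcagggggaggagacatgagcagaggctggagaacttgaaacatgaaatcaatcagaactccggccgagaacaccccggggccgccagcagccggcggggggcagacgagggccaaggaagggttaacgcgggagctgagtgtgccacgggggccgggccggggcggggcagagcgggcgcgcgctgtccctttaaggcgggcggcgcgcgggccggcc
Wnt5b, chr6:119449387-119449636, minus strand: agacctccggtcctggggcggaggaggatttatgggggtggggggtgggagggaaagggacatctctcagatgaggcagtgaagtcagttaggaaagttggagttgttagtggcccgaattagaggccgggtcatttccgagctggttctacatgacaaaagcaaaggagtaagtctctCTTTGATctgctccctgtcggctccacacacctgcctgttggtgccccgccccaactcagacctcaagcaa
The motif was found once among these windows, 71 bases before 1 of the annotated starts of Wnt5b. That start lies inside the gene, which spans 119432531 to 119544347 on chromosome 6. Of the Wnt5b windows, the one holding the motif is shown. Among the 17 detected members with windows (22 windows), only Wnt5b held the motif. The match shown here thus follows from the choice of gene and window. Across members, 40 of 60 matched the promoter table, with 50 windows, and 2 windows (4%) held the motif, those of Wnt5b and Wnt11. Over all 32851 windows of that length, 3.21% held it. These letters describe the windows and say nothing of binding.

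Among ligands, Wnt7b and Wnt5a carried most of the transcripts. Wnt7b, on chromosome 15 at 85535437 to 85582473 (GRCm38), had 56.9, 51.6 and 33.4 CPM in replicates 1, 2 and 3. Wnt5a, the prototype of ligands that signal through ROR receptors, had 64.02, 64.4 and 63.5 CPM and lies on chromosome 14 at 28504750 to 28527448. Wnt7b was lowest in replicate 3, whereas Wnt5a stood at nearly the same level in every library (chi-square adjusted p = 0.984, with Benjamini-Hochberg adjustment over all genes tested). Levels of different genes are compared as length-scaled CPM, that is CPM per kilobase of union exon length. On that scale Wnt7b averaged 9.65 ± 2.5 and Wnt5a 8.18 ± 0.056, which did not differ beyond the spread between replicates (1.15-fold). A difference is called larger than the spread when all 3 libraries lie on one side and the mean log2 ratio exceeds 2 SD.

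Wnt10a and Wnt5b formed the next pair and also did not differ beyond the spread, at 3.75 ± 0.73 and 2.47 ± 0.67 length-scaled CPM. Wnt9a followed at 0.59 ± 0.019 and was the last detected ligand, with 2.03, 1.97 and 1.90 CPM. Wnt7a was split, with 0.972, 1.31 and 3.28 CPM, and so was Wnt4, with 0.333, 0.379 and 1.26 CPM; both were highest in replicate 3. Wnt2, Wnt2b, Wnt6, Wnt10b, Wnt11 and Wnt16 had between 5 and 52 counts over the 3 libraries and lay below 1 CPM in each. The remaining ligands were at or near 0: Wnt1 had 1 count in all, Wnt8a 2, and Wnt3, Wnt3a, Wnt8b and Wnt9b had 0. As a share of summed ligand transcripts per length, Wnt7b held 42.1%, 39.2% and 28.9% in replicates 1, 2 and 3, Wnt5a 29.7%, 30.7% and 34.4%, and Wnt5b 6.94%, 8.58% and 13.6%. On union exon length Wnt5a thus held the largest share in replicate 3 only, and Wnt7b in replicates 1 and 2. This order depends on the length used. In CPM, without length correction, Wnt5a lay above Wnt7b in all 3 libraries. The longest transcripts are 7010 bases for Wnt5a and 3400 for Wnt7b, and shares on that length were not computed.

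For close relatives, ratios were taken within each library on the log2(count + 0.5) scale per length. Wnt5a lay 3.38-fold above Wnt5b (range over libraries 2.53 to 4.26), and Wnt7b lay 18.3-fold above Wnt7a (6.56 to 37.4). Both exceeded the spread. The second was smallest in replicate 3, without which the mean log2 ratio rose to 4.94, against 4.20 with all libraries. Without length correction the log2 ratios were larger, at 3.31 for Wnt5a over Wnt5b (1.75 with it) and 4.82 for Wnt7b over Wnt7a. The 23 gene pairs compared were chosen with earlier results of these data known. Of them, 19 had enough counts for a spread, and 17 of these 19 exceeded it. Among neighbours in level within a group, 15 of 22 pairs exceeded it. Those 22 pairs were ordered on the same values, so their count is a description only. For each of the 17 an exact two-sided permutation test by sign flips gave p = 0.25, which is the lowest value possible with 3 libraries, so no pair can pass 0.05.

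**Figure D2:**
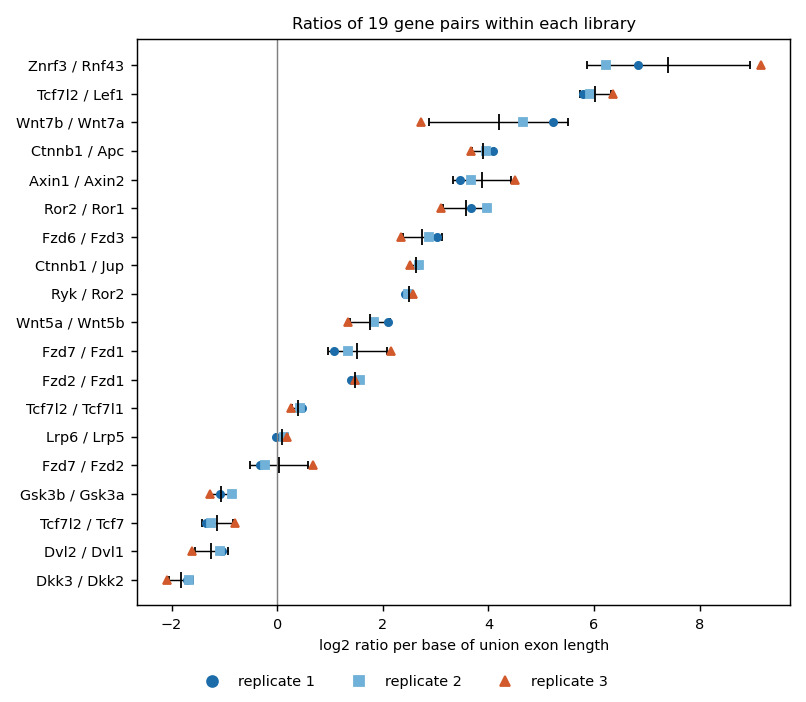
Log2 ratio of length-scaled counts for 19 gene pairs (first gene over second), with 1 point per library and a bar for mean ± SD (n = 3). Of the pairs, 17 keep all 3 points on one side of 0, while Fzd7 over Fzd2 and Lrp6 over Lrp5 straddle it.

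Frizzled receptors, the seven-pass receptors for Wnt, were broadly present. Fzd7 had 85.4, 87.96 and 131.7 CPM in replicates 1, 2 and 3, and lies on chromosome 1 at 59482424 to 59486955. Fzd5 had 107.5, 110.5 and 142.3 CPM. Fzd2 had 86.2, 83.4 and 66.8 CPM. Replicate 3 was thus highest for Fzd7 and Fzd5 and lowest for Fzd2. In length-scaled CPM the order was Fzd7 (22.4 ± 5.7), Fzd2 (21.5 ± 2.9), Fzd5 (17.4 ± 2.8), Fzd6 (13.8 ± 1.8), Fzd1 (7.72 ± 1.2), Fzd8 (2.08 ± 0.19), Fzd3 (2.04 ± 0.25) and Fzd4 (0.956 ± 0.083). Neighbours among the first 4 did not differ beyond the spread, and neither did Fzd8 and Fzd3. The steps down to Fzd1, to Fzd8 and to Fzd4 did exceed it. Fzd7 and Fzd1 differed 2.87-fold and Fzd2 and Fzd1 2.79-fold, while Fzd7 over Fzd2 turned with the library: the mean log2 ratio was 0.04 ± 0.55 with all 3 and −0.28 without replicate 3. Fzd9 had 31 counts in all and lay below 1 CPM, and Fzd10 had 0.

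The co-receptors Lrp6 and Lrp5 were present at like levels. Lrp6 had 133.9, 145.3 and 135.9 CPM and Lrp5 97.4, 95.1 and 84.9 CPM. Per length they averaged 10.1 ± 0.44 and 9.49 ± 0.68, a 1.07-fold ratio within the spread. With the longest transcript in place of union exon length, Lrp6 exceeded Lrp5 beyond the spread (log2 ratio 0.51), as it did without replicate 1 (0.16), against 0.09 in the comparison of all libraries. Among the other receptors, Ryk, a Wnt receptor with an inactive kinase domain, led with 180.3, 188.4 and 178 CPM and 40.2 ± 1.2 per length. Ror2, a WNT5A receptor, had 31.3, 31.7 and 27.9 CPM and Ror1 had 3.33, 2.73 and 4.41 CPM. Ryk lay 5.63-fold above Ror2, and Ror2 lay 12-fold above Ror1 (range 8.56 to 15.7), both larger than the spread.

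Receptor turnover genes were uneven. R-spondins bind LGR receptors and remove the ubiquitin ligases ZNRF3 and RNF43 that clear Frizzled from the cell surface. Znrf3 had 24.9, 23.2 and 31.5 CPM, whereas Rnf43 had 6, 7 and 1 counts. The ratio per length was 170-fold (range 74.7 to 570), and its size rests on those few Rnf43 counts: the mean log2 ratio was 7.41 with all libraries, 8 without replicate 2 and 6.53 without replicate 3. Lgr4 had 11.3, 13.1 and 9.93 CPM and Lgr6 4.05, 4.59 and 4.44 CPM. The stem cell marker Lgr5 had 1 count in all, in replicate 2, so that Lgr4 lay 1936-fold above it per length over the pooled libraries (exact 95% interval 347 to 76547, counting error only). On the log2 scale this was 10.92 with all libraries and 10.26 without replicate 1, and without replicate 2, where Lgr5 had 0 counts, it was a lower bound of 8.73 against 3 counts. The 4 R-spondins together had 14 counts: 8 for Rspo2, 3 for Rspo3, 2 for Rspo4 and 1 for Rspo1. Receptors and a ligase of this branch were thus detected without any R-spondin transcript above 1 CPM.

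Secreted inhibitors ran from 0 counts to levels among the highest of detected genes. Dkk2, which binds LRP co-receptors, had 527.4, 530.5 and 245.2 CPM in replicates 1, 2 and 3, and lies on chromosome 3 at 132085292 to 132180304. Per length it averaged 117 ± 44, above 97.1% of detected genes. Dkk3, a divergent family member, had 147, 151.3 and 52.3 CPM and lies on chromosome 7 at 112116017 to 112159057. Both were lowest in replicate 3, by a highest-to-lowest ratio of 2.16 for Dkk2 and 2.90 for Dkk3. Dkk3 lay at 0.283 of Dkk2 per length (range 0.235 to 0.315), larger than the spread. Sfrp1, a soluble Frizzled-like decoy, had 28.6, 30.4 and 28.4 CPM, with no difference between libraries beyond counting noise (adjusted p = 0.406).

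The other inhibitors among the members were near 0. Dkk1, the best-studied antagonist of the family, had 3 counts, all in replicate 1. Over the pooled libraries, Dkk3 lay 2742-fold above Dkk1 per length (exact 95% interval 938 to 13300, counting error only). On the log2 scale this was 11.42 with all libraries and 10.72 without replicate 2, and without replicate 1, where Dkk1 had 0 counts, it was a lower bound of 10.52 against 3 counts. Against Sfrp2, which had 0 counts, Sfrp1 lay at least 465-fold higher, with 3 counts over the 3 libraries as the floor. The log2 bound was 8.86 with all libraries and 8.21 without replicate 1. Dkk4 and Sfrp5 also had 0 counts, and Sfrp4 and Wif1 had 15 and 23 counts. Dkk2 alone held 73.8%, 73.3% and 74.9% of the summed transcripts per length of the inhibitors among the members. Notum, which encodes an enzyme that removes the lipid from Wnt, is not among them and averaged 34.3 length-scaled CPM.

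**Figure D3:**
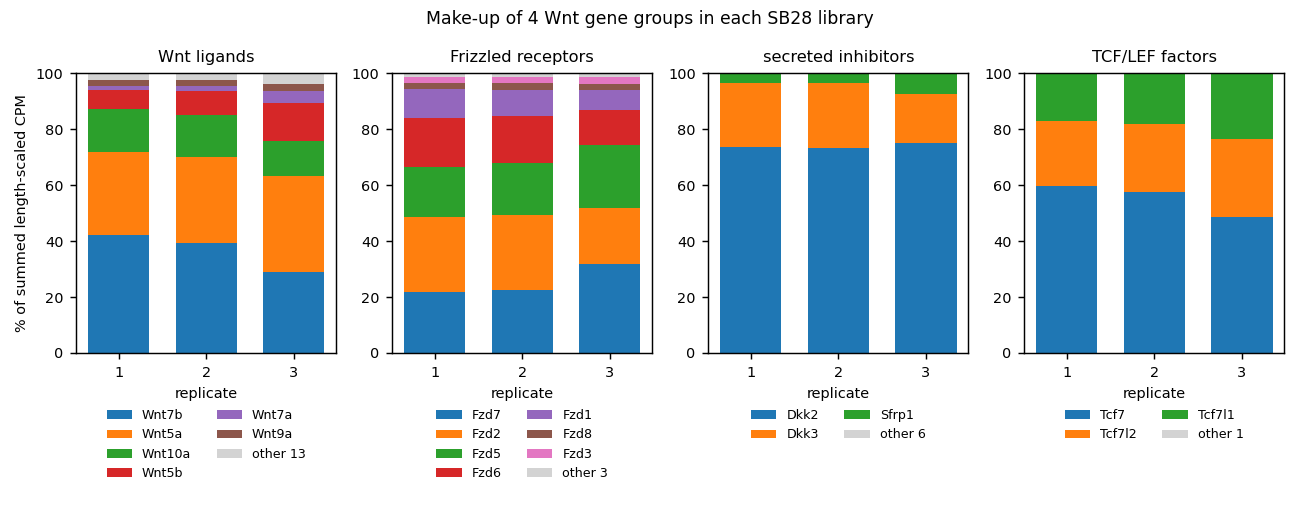
Share of each gene in the summed length-scaled CPM of its group, in percent, for ligands, Frizzled receptors, secreted inhibitors and TCF/LEF factors, with 1 stacked bar per library and grey for the remaining genes. Dkk2 keeps 73.3% to 74.9% of the inhibitors in all 3 libraries, while the shares of Wnt7b and Tcf7 are smaller in replicate 3 and that of Fzd7 is larger.

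Beta-catenin and its destruction complex were all detected. Ctnnb1, encoding beta-catenin and lying on chromosome 9 at 120929216 to 120960507, had 760.3, 748.7 and 686.2 CPM and 141 ± 7.7 per length, above 97.7% of detected genes. It lay 14.9-fold above the scaffold Apc (range 12.7 to 16.9; 4.81-fold without length correction) and 6.17-fold above Jup, the related plakoglobin (5.70 to 6.48). Beta-catenin also serves in cadherin junctions, and of 9 genes for cadherins and their partners 7 were detected: Ctnna1, Cdh2, Cdh5, Ctnnd1 and Jup between 22.8 and 101 length-scaled CPM, and Cdh11 and Ctnnd2 at 3.72 and 1.38. Cdh11 was lowest and Ctnnd2 highest in replicate 3, each by over 2-fold between libraries. Cdh1 and Ctnna2 stayed under 1 CPM. These 7 of 9 stand beside 54.1% of protein-coding gene lines detected. The junction cadherin Cdh2 had 708.8, 711.7 and 720.1 CPM.

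Axin1, the constitutive scaffold, had 79.7, 78.9 and 94.2 CPM. Axin2, its feedback-induced relative, had 10.3, 8.93 and 5.98 CPM and was lowest in replicate 3. Axin1 lay 14.7-fold above Axin2 per length (range 11.1 to 22.6), larger than the spread.

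Of the TCF/LEF factors 3 of 4 were detected. Tcf7, encoding TCF1, had 18.3, 17.2 and 12.3 CPM, Tcf7l2 had 23.9, 24.2 and 23.7 CPM and Tcf7l1 had 7.75, 7.97 and 8.76 CPM. Lef1 had 15, 11 and 9 counts and lay below 1 CPM. Tcf7l2 lay 65.2-fold above Lef1 and 1.31-fold above Tcf7l1, both larger than the spread. The log2 ratio of Tcf7l2 over Tcf7l1 was 0.39, against 1.26 with the longest transcript and 1.55 without length correction. Tcf7l2 averaged 2.73 ± 0.028 per length and Tcf7 6.08 ± 1.2, with Tcf7 2.2-fold higher (range 1.74 to 2.56). With the longest transcript as length the log2 ratio of Tcf7l2 over Tcf7 lay within the spread (0.02), and without length correction it turned to 0.61, so the order of Tcf7l2 and Tcf7 is not settled by these counts.

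**Figure D4:**
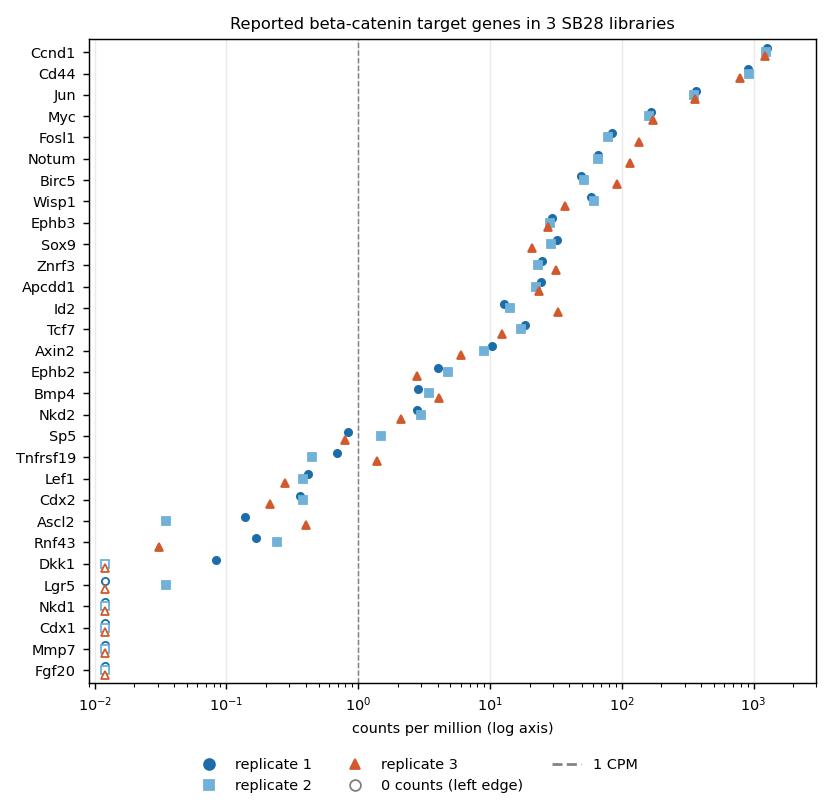
CPM of 30 genes reported elsewhere as beta-catenin targets, in each of the 3 SB28 libraries, on a log axis, with 1 point per library and open points at the left edge for 0 counts. Broadly expressed growth genes such as Ccnd1 lead, whereas Lef1, Rnf43, Dkk1, Lgr5 and Nkd1 lie below 1 CPM in every library.

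Genes reported as beta-catenin targets in various tissues spread over the whole range. Of 30 on the list, 18 (60%) were detected, 2 were split (Sp5 and Tnfrsf19) and the other 10 stayed under 1 CPM throughout. Among all protein-coding gene lines 54.1% were detected. The 5 highest per length were Ccnd1, Cd44, Jun, Myc and Fosl1, between 48.8 and 263 length-scaled CPM; each of these also answers to other pathways. Among feedback genes, Notum, encoding an enzyme that removes the lipid from Wnt, had 65.9, 65.6 and 116 CPM and was highest in replicate 3, the opposite of Axin2. Apcdd1, a membrane inhibitor, had 24.3, 22.3 and 23.4 CPM, and Nkd2 2.78, 3.001 and 2.11 CPM. The undetected members were Ascl2, Cdx1, Cdx2, Dkk1, Fgf20, Lef1, Lgr5, Mmp7, Nkd1 and Rnf43, of which Cdx1, Fgf20, Mmp7 and Nkd1 had 0 counts. The feedback genes of the list therefore did not stand at 1 level: Notum, Znrf3 and Apcdd1 exceeded 20 CPM in every library, while Lef1, Nkd1 and Rnf43 stayed below 1 CPM. Of the target genes tested between libraries, Id2 (12.9, 14.2 and 33.0 CPM) and Tnfrsf19 (0.694, 0.448 and 1.38 CPM) differed at least 2-fold between libraries and were highest in replicate 3.

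Genes that make and release Wnt were present: Wls, the carrier of lipidated Wnt, had 146, 151 and 127 CPM, and Porcn, the enzyme that attaches the lipid, 7.63, 6.76 and 9.93 CPM. They belong to a list of 19 secretion and extracellular genes, of which 12 (63.2%) were detected, against 54.1% of protein-coding gene lines. Per length the list was led by the glypican Gpc4 (43.3), Notum (34.3), Wls (16.1), Cthrc1 (13.3) and Bambi (8.22). Draxin, Cpz, Gpc3, Sost, Kremen2 and Sostdc1 lay below 1 CPM, whereas Kremen1, a DKK co-receptor, had 66.4, 65.5 and 57.7 CPM. Cthrc1, a secreted WNT cofactor, had 25.9, 27.6 and 10.3 CPM and was lowest in replicate 3.

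Most genes of the intracellular, nuclear and planar polarity lists were detected, where 54.1% of all protein-coding gene lines were. Of 25 transducers, 22 were detected, led per length by Csnk1g2, Csnk1d, Fbxw11, Gsk3a and Csnk1a1 (24.3 to 44.6), and Frat1, Dact1 and Nkd1 lay below 1 CPM. Gsk3b averaged 15.3 and Gsk3a 32.1 length-scaled CPM, a ratio of 0.476 that exceeded the spread but turned without length correction (log2 0.69). Dvl2 lay at 0.422 of Dvl1 (range 0.329 to 0.485). All 18 nuclear partners of beta-catenin were detected, led by Smarca4, Ctbp1, Pygo2, Ctnnbip1 and Tbl1x (18.1 to 62.8). Of 22 genes of planar polarity and other beta-catenin-independent routes, 18 were detected, led by Rac1, Rhoa, Ptk7, Scrib and Camk2d (8.98 to 91.4), with Nfatc2 and Prickle1 split and Celsr1 and Celsr3 below 1 CPM. Nfatc2, a calcium-regulated transcription factor, had 3.25, 3.24 and 0.858 CPM and was lowest in replicate 3.

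Between libraries, 39 members had a mean count of at least 10 and were tested, and 28 of them (71.8%) varied beyond counting noise, against a background of 65.7% of 12737 genes tested. The members' share lay near that background. Of the 39, 16 (41%) varied and were lowest in replicate 3, against 31.5% of all genes, and 11 (28.2%) varied and were highest there, against 33.1%. Without replicate 3 the count fell to 3 of 38 (Fzd1, Lrp6 and Apc), against 2.01% of genes. With a common dispersion estimated by edgeR added to the counting variance, 3 members (Wnt4, Wnt7a and Dkk3) passed, against 1.99% of genes. Of 11 members that did not pass, Wnt5a, Tcf7l2 and Wnt9a stayed closest, with highest-to-lowest ratios of 1.01, 1.02 and 1.07.

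The members that differed at least 2-fold between libraries were 7 of the 39 tested (17.9%), against 8.9% of all genes tested: Dkk2 and Dkk3 together with the ligands Wnt2, Wnt4, Wnt7a, Wnt11 and Wnt16. The 5 ligands had between 32 and 180 counts over the 3 libraries, so their ratios carry wide counting error. Wnt2, Wnt4 and Wnt7a were highest in replicate 3, and Wnt11 and Wnt16 lowest. Dkk2 and Dkk3 are the abundant members of the set. Markers of pericytes and fibroblasts moved with them: of 8 markers, 6 were detected, 7 varied, and 6 of the 7 were lowest in replicate 3, the exception being Acta2. Their summed level was 4778, 4653 and 2776 CPM, led by Col1a1 and Col1a2, and none had 0 counts in all libraries, although Lum lay below 1 CPM. Varying markers of other cell types were mostly lowest in replicate 3 too: 3 of 3 for astrocytes (list sum 523, 524 and 423 CPM), 3 of 3 for neurons (27.8, 26.9 and 20.1 CPM), Tmem119 of the microglia list (list sum 76.2, 69.99 and 41.98 CPM) and Pdgfra of the oligodendrocyte lineage (list sum 106.2, 107.4 and 87.7 CPM). For endothelium (list sum 382, 373 and 306 CPM), Cdh5 was lowest in replicate 3 and Kdr highest there. All 5 detected mesenchymal glioma markers varied, with 2 lowest and 2 highest in replicate 3. Over all genes, 4007 of the 8369 that varied were lowest in replicate 3 and 4215 were highest there. The part of these markers in the Dkk2 and Dkk3 values was not tested.

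**Figure D5:**
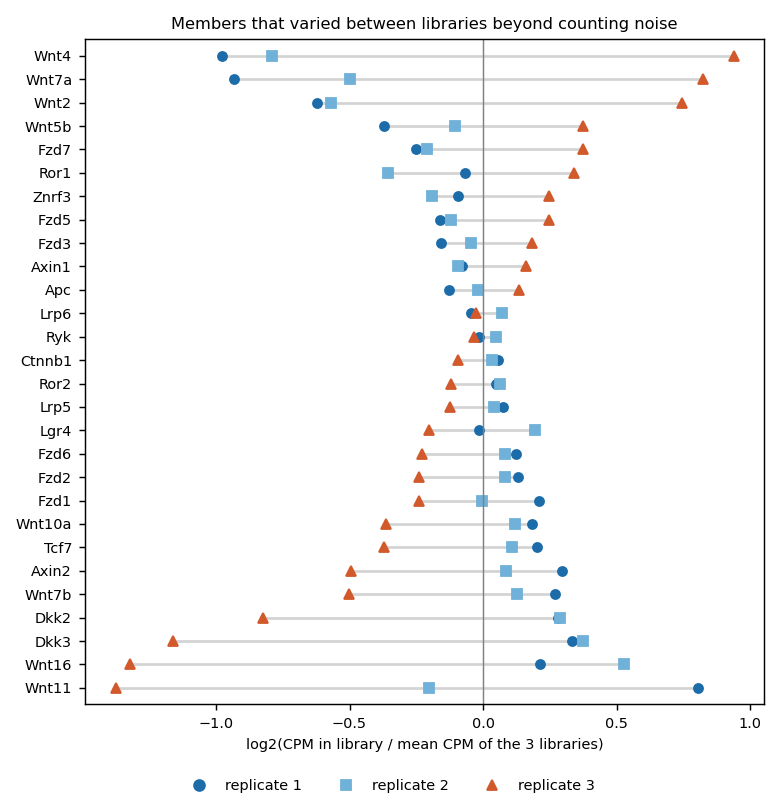
Log2 of CPM in each library over the mean CPM of the 3 libraries, for the 28 members that varied beyond counting noise, with 1 point per library and grey lines for the range. Replicate 3 lies at an end of the range for most members, at the low end for Dkk2, Dkk3, Wnt7b and Axin2 and at the high end for Wnt4, Wnt7a, Wnt5b and Fzd7.

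Exons of 11 members overlap another annotated gene. For Ctnnb1 the shared part is 14.6% of its exon length (with Ulk4), for Fzd5 17.8%, and for Wnt5a and Wnt7b 4.58% and 6.62% with antisense genes. The strand setting of the counting is not given in the sources used here. Reads in shared stretches may have entered a member's count or been left out as ambiguous, and which of these held cannot be told.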

How the data were processed

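Counts per gene symbol were deposited by the authors as raw, unnormalized counts, 1 file per library with 24421 gene lines and 5 summary lines. Per the submitters' processing notes, Bowtie2 2.2.4, HTSeq and mm10 were used; their roles, options and strand setting are not given in the sources used here. Reads not assigned to a single gene enter no gene's count. Summary lines held 15.2% to 17.1% of all lines' counts per library and were left out.

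CPM was computed over assigned counts, and length-scaled CPM with union exon lengths from GENCODE M21 (GRCm38), which covered all 60 members. Detection meant at least 1 CPM in all 3 libraries. Differences between libraries were tested with a chi-square test with 2 degrees of freedom on counts scaled by edgeR's TMM, where the mean count reached 10; p-values were adjusted by Benjamini-Hochberg over all genes tested and called at 0.05. It compares libraries with counting noise only. With 1 group, no test between conditions was possible. Pair ratios used a pseudocount of 0.5 counts. The steps were tested on simulated data. Promoter sequences came from RefSeq.

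Members, lists and pairs were chosen with earlier results of these data known. Named genes are all members and pair genes and, of each other list, the 5 highest per length, those below 1 CPM in all libraries, and those varying at least 2-fold; Porcn, Kremen1, Apcdd1, Nkd2, Sp5 and Prickle1 were added after their values were seen. Alternatives were another scaling, threshold, length, pseudocount, filter or dispersion, and each library left out. The tools were R 4.3.3 with edgeR 4.0.16 and DESeq2 1.42.0, and Python 3.11.15 with pandas 2.3.3, scipy 1.17.1, numpy 2.4.6 and matplotlib 3.10.9.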

Additional observations from a re-analysis of the deposited data

How the results depend on the processing

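The number of detected members was 31 of 60, against 46.6% of all gene lines. It was between 27 and 32 under every threshold, scaling and left-out library tried, against 41.2% to 48.8% of all gene lines. The number of members varying between libraries was 28 of 39 tested, against 65.7% of all genes tested. Under other scalings it was 28 of 39 (65.8% and 65.9% of genes). It was 24 of 32 with a mean count of at least 50 (70.4%) and 27 of 52 without a filter (50.2%). With replicates 1 and 2 summed, a setting chosen after seeing the data, it was 27 of 40 (66.1%). It was 3 of 39 with edgeR's common dispersion (1.99%), an estimate made from these same libraries. It was 28 of 38 without replicate 1 (62.8%), 25 of 39 without replicate 2 (64%) and 3 of 38 without replicate 3 (2.01%). Of the pair ratios, 17 of 19 exceeded the spread, and 17 or 18 under each alternative. Fzd7 over Fzd2 was −0.28 to 0.22 (log2) over the left-out libraries. Lrp6 over Lrp5 exceeded the spread with the longest transcript (0.51), without length correction (0.58) and without replicate 1 (0.16; 0.0458 to 0.16 over the left-out libraries). Tcf7l2 over Tcf7 was 0.0175 with the longest transcript and 0.61 without length correction, and Gsk3b over Gsk3a was 0.69 without length correction. The lower bound of Sfrp1 over Sfrp2 was 9.88 without length correction and 8.21 to 8.33 over the left-out libraries, which lower it by construction. Without length correction, Wnt5a over Wnt5b was 3.31, Wnt7b over Wnt7a 4.82, Fzd6 over Fzd3 1.34 (2.75 with it), Ctnnb1 over Apc 2.27 and Tcf7l2 over Tcf7l1 1.55, and Lgr4 over Lgr5 was 10.12, and 10.04 with the longest transcript. With a pseudocount of 5 counts, Znrf3 over Rnf43 was 6.27. A change of length setting moves each log2 ratio by an amount that the gene lengths alone fix. The cause of the other shifts was not tested. No paired analysis was possible because there is 1 group. Genes near 0 are limited by depth, and their ratios by a few counts.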
